A study of Mus musculus with 42 samples.

Results

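The 10 genes described here belong to the piRNA pathway and to the germ granules of male germ cells: Piwil1, Piwil2, Tdrd1, Tdrd5, Tdrd6, Tdrd7, Ddx4, Ddx25, Mael and Mov10l1. They were found by gene symbol in a table of 27409 genes from mouse testes, and all 10 had a row. The study concerned PCIF1, the enzyme that methylates the first transcribed adenosine beside the mRNA cap to give m6Am. Capped RNA ends of testes were precipitated with an antibody against m6A, which also binds m6Am (m6Am-Exo-Seq), and the precipitate (IP) was sequenced beside the starting RNA (input). There were 4 groups of 3 libraries: IP from Pcif1 knockout (KO) testes, IP from heterozygous (HET) testes, KO input and HET input. All mice were adult. Those of the testes assay all carried the same Cas9-made deletion of 89 bp at exon 15 and intron 16 of Pcif1. It was on both alleles in KO and on 1 allele in HET. The controls of this assay were HET, not wild type. Brains of adult KO and wild-type mice, described further below, gave 4 more groups of 3 libraries. The deletion was made in C57BL/6J by DBA/2J hybrid embryos, founders were crossed to C57BL/6J, and the results come from a single mouse line. The labels do not tie a library to an animal, so p-values measure the spread between these libraries, which may in part be technical. The question was which transcripts are precipitated in a way that depends on PCIF1, and whether the RNA levels of the same genes differ between genotypes.

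As background, piRNAs are small RNAs bound by PIWI proteins, and in the mouse testis they silence transposons and are needed to make sperm. Long precursor transcripts are cut and trimmed at the surface of mitochondria, where a helicase and several scaffold proteins hand them to PIWI proteins. PIWI proteins carry methylated arginines that Tudor-domain proteins bind, and these proteins gather in germ granules: the intermitochondrial cement of spermatocytes and the chromatoid body of round spermatids.

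Since m6Am requires an adenosine as the first transcribed base, the annotated starts of the genes are shown first. RefSeq promoters (GRCm38.p6) matched 8 of the 10 genes, all but Piwil2 and Tdrd6, with 12 start sites in all. The genes with 1 annotated start each are printed as 40 bases before the start and 10 from it on, 5′ to 3′ on the gene's strand, with the start base in capitals.
Piwil1 (chr5:128736206-128736255, plus strand): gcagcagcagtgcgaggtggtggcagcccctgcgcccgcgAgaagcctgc
Mov10l1 (chr15:88982954-88983003, plus strand): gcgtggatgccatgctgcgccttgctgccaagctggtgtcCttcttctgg
Mael (chr1:166238735-166238784, minus strand): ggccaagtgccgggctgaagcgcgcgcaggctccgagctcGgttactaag
Tdrd5 (chr1:156303339-156303388, minus strand): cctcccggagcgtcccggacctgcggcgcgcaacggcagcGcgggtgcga
Ddx4 (chr13:112652301-112652350, minus strand): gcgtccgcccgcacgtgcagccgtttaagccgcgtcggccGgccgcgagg
Ddx25 (chr9:35558461-35558510, minus strand): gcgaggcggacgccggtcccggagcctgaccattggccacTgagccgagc
Among these 6 genes the annotated start base was A in Piwil1. Tdrd1 and Tdrd7 have 3 annotated starts each, of which 2 in Tdrd1 and 1 in Tdrd7 were at A, so that 4 of the 12 starts were at A. Over all 32851 RefSeq promoters the start base was A in 34.4%. The letters CAGTTG, a core that the transcription factor A-MYB can bind, were searched on both strands of the 300-base promoter (250 bases before the start and 50 from it on). They were found in 3 of the 12, those of Piwil1 and of 2 starts of Tdrd7, against 13.7% of all promoters. These are matches of letters at annotated starts, and start sites were not measured in these libraries.

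The values are signals, that is, gene reads scaled by 1 factor per library, and 1 read was worth 0.653 to 2.20 of signal. A signal is thus relative to the other genes of its library and is not an amount of RNA. KO IP libraries held 1816831 to 4364847 reads in genes, HET IP libraries 2689591 to 6574479, KO inputs 4151226 to 4971554 and HET inputs 4224175 to 4907380. Ribosomal RNA genes took 0.526 to 0.559% of the reads in KO IP, 0.133 to 0.251% in HET IP, 0.507 to 0.910% in the KO inputs, against 0.362 to 0.469% in the HET inputs, so this share was higher in KO than in HET in both kinds of library. No pair of libraries held identical values. In a chi-square of counts between replicates, HET IP replicate 2 stood apart from the other HET IP libraries (27.5 and 20.3 per gene, against 9.65 between those), and KO input replicate 1 from the other KO inputs (7.45 and 8.26, against 3.28). Pcif1 itself had 0 to 7 reads in KO IP, 1 to 9 in HET IP, 2 to 9 in the KO inputs and 7 to 13 in the HET inputs, which is too few to check the genotype labels. Markers of male germ cells were present in every input (Sycp3 of spermatocytes at 80.5 to 137.3, Tnp1 of elongating spermatids at 70.0 to 109.0), while the spermatid genes Prm1 and Odf1 had at most 2.45 and 0.797.

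Of the 10 genes, 9 passed the filter on low values (3 or more libraries with a signal of 10 or above). Ddx25 did not. In KO testes 3 of the 9 were higher in IP than in input (Piwil1, Piwil2 and Mov10l1) and 3 were lower (Tdrd5, Tdrd6 and Mael) at a limma adjusted p below 0.05. Of all 12387 genes tested in that comparison, 45.5% passed, 21.2% higher and 24.3% lower. In HET testes 2 of the 9 were higher (Piwil1 and Piwil2) and 4 were lower (Tdrd1, Tdrd5, Tdrd6 and Tdrd7), against 30.1% of all genes, 14.7% higher and 15.4% lower. The median log2 fold of the 9 genes was -0.03 in KO and -0.31 in HET, beside medians over all genes of -0.07 in KO and 0.02 in HET. The HET and KO enrichments come from 1 model over the 12 libraries and use different libraries for their values. Library groups did not overlap between IP and input for 7 of the 9 genes in KO (4 higher and 3 lower in IP, against 55.0% of all genes, 26.0% higher and 29.0% lower) and for 6 of the 9 in HET (2 higher and 4 lower in IP, against 45.8% of all genes, 22.8% higher and 23.1% lower).

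**Figure D1:**
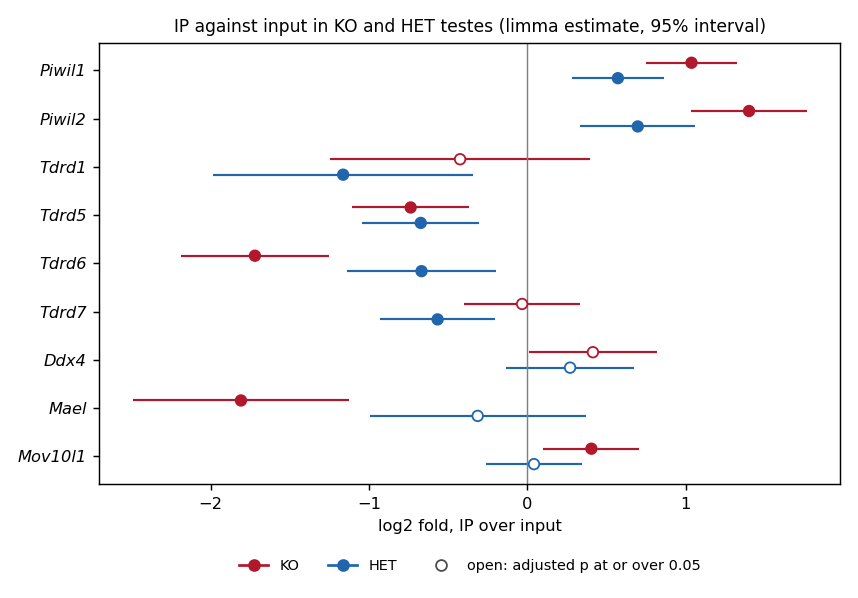
Log2 fold of IP over input (x axis) for the 9 genes tested, in KO (red, upper) and HET testes (blue, lower), as limma estimates with 95% intervals and open points where the adjusted p was at or over 0.05. Piwil1 and Piwil2 lie to the right of 0 in both genotypes, Tdrd5 and Tdrd6 to the left in both, and Mael at -1.81 in KO and -0.31 in HET.

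Both PIWI genes were enriched in the precipitate in either genotype. Piwil1 (ENSMUSG00000029423, chromosome 5) encodes MIWI, the PIWI protein of late spermatocytes and round spermatids. Its signal was 2775, 2484 and 2532 in KO IP, against 1312, 1165 and 1321 in KO input. In HET it was 2072, 1415 and 1566 in IP, against 1129.7, 1163 and 1063 in input. Every IP library of either genotype lay above every input library. The log2 fold of IP over input was 1.04 in KO (SE 0.136, limma adjusted p = 1.9e-05) and 0.57 in HET (SE 0.136, limma adjusted p = 0.00510).

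Piwil2 (ENSMUSG00000033644, chromosome 14) encodes MILI, a PIWI protein present from fetal germ cells to round spermatids. Its signal was 766, 1109.9 and 1070.4 in KO IP, against 344, 369.7 and 388 in KO input. HET testes gave 399.8, 614 and 559 in IP, against 323, 319.6 and 311 in input. Here, too, IP and input did not overlap in either genotype. IP over input gave a log2 fold of 1.40 in KO (SE 0.172, limma adjusted p = 1.0e-05) and 0.70 in HET (SE 0.172, limma adjusted p = 0.00628). For both genes these 4 calls were kept under all 20 alternatives run on each.

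Between genotypes, the 3 KO IP libraries of Piwil1 and of Piwil2 all lay above the 3 HET IP libraries. The IP-to-input difference, KO minus HET, was 0.46 for Piwil1 (SE 0.193, limma adjusted p = 0.136) and 0.70 for Piwil2 (SE 0.243, limma adjusted p = 0.0767), so neither passed. For Piwil2 the same difference passed with edgeR (0.74, adjusted p = 0.0497), with DESeq2 (0.70, adjusted p = 0.0398), without HET IP replicate 2 (0.83, limma adjusted p = 0.0364) and without KO IP replicate 1 (0.87, limma adjusted p = 0.0293). The authors' deposited table gives Piwil2 a log2 difference of 0.69 with an adjusted p of 0.0424, and Piwil1 0.45 with 0.108. For Piwil1 it passed without HET IP replicate 1 (0.62, limma adjusted p = 0.0180). With the IP libraries compared alone, Piwil1 was higher in KO by 0.64 (limma adjusted p = 0.0214) and Piwil2 by 0.91 (limma adjusted p = 0.00956). That comparison takes no account of the inputs, and 2988 of 11345 genes passed in it. Its values are relative to the other genes of the same precipitates, so a higher signal need not mean more RNA precipitated.

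**Figure D2:**
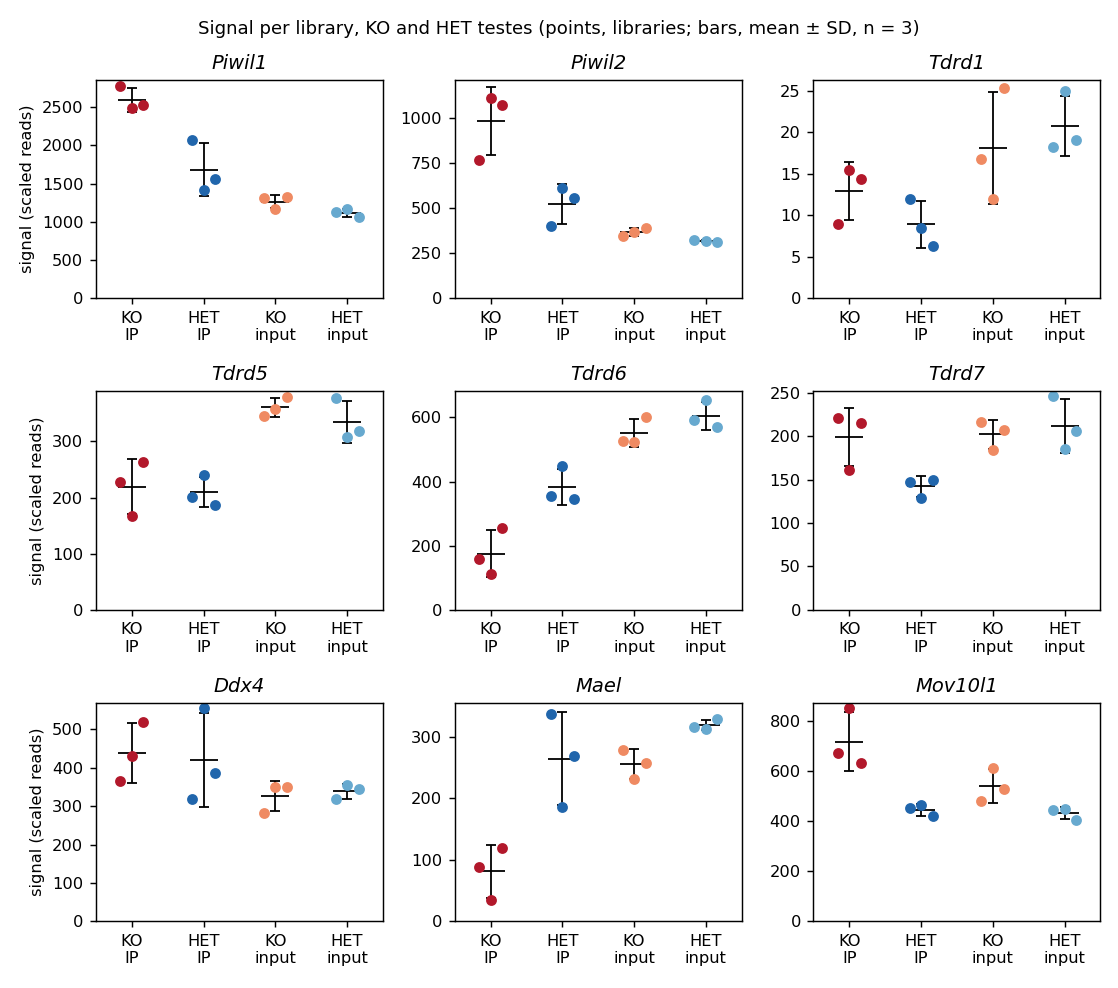
Signal in each library (y axis, scaled reads, linear from 0) for the 9 genes tested, by group (KO IP, HET IP, KO input, HET input), with points for the 3 libraries and lines for the mean ± SD. KO IP lies highest for Piwil1 (2484 to 2775), Piwil2 (766 to 1109.9) and Mov10l1 (631 to 850.1), and lowest for Tdrd6 (112 to 256) and Mael (35.2 to 119.8).

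In KO, Mov10l1 was higher and Mael lower in IP than in input. Mov10l1 (ENSMUSG00000015365, chromosome 15) encodes the RNA helicase that binds piRNA precursors. Its signal was 674, 850.1 and 631 in KO IP, against 481, 612 and 529 in KO input, where no IP value was below an input value. The HET libraries had 452, 464 and 419 in IP, against 447, 447 and 403 in input, and these overlapped. The log2 fold of IP over input was 0.40 in KO (SE 0.143, limma adjusted p = 0.0307) and 0.04 in HET (SE 0.143, limma adjusted p = 0.854). The KO call was lost with no filter or with scaling by library totals, and without KO input replicate 1, KO input replicate 3 or KO IP replicate 2 (adjusted p up to 0.140). The HET fold was -0.056 with scaling by library totals. The difference between genotypes was 0.36 (SE 0.202, limma adjusted p = 0.270). With the inputs left out, the KO IP libraries were higher than the HET IP libraries by 0.68 (limma adjusted p = 0.0194), where 2988 of 11345 genes passed.

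Mael (ENSMUSG00000040629, chromosome 1) encodes Maelstrom, a germ granule protein needed for transposon silencing. Its signal fell to 88.3, 35.2 and 119.8 in KO IP, against 279, 231 and 258 in KO input. For HET the signal was 337, 186 and 269 in IP, against 315, 313 and 329 in input. The KO IP libraries, with 16 to 133 reads of the gene each, lay below all 9 others, while HET IP and HET input overlapped. IP over input gave a log2 fold of -1.81 in KO (SE 0.321, limma adjusted p = 0.000294) and -0.31 in HET (SE 0.321, limma adjusted p = 0.492). The difference, KO minus HET, was -1.49 (SE 0.454, 95% interval -2.46 to -0.53, limma adjusted p = 0.0478).

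That difference of Mael stood close to the threshold. Over 20 alternatives it ran between -1.86 and -0.99, with adjusted p between 0.00497 and 0.103, and 12 of the 20 ended the call. Among these were a pseudocount of 0.5 (adjusted p = 0.0522), scaling by library totals (0.0511), TMM scaling (0.0568) and no filter on low values (0.0678). The call was also lost without any 1 of the 6 inputs, without HET IP replicate 1 and without HET IP replicate 3 (adjusted p 0.0787 to 0.103). Without KO IP replicate 2, the library with 16 reads of Mael, the difference was -0.99 (limma adjusted p = 0.0434). DESeq2 gave -1.31 (adjusted p = 0.00861) and edgeR -1.24 (adjusted p = 0.0427), and the authors' deposited table gives -1.32 with an adjusted p of 0.00958.

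The 4 Tudor-domain genes were all lower in IP than in input in HET, and Tdrd5 and Tdrd6 also in KO. Tdrd6 (ENSMUSG00000040140, chromosome 17) encodes a large Tudor protein needed for the structure of the chromatoid body. Its signal was 159, 112 and 256 in KO IP, against 527, 523 and 601 in KO input. In HET it was 354, 447 and 346 in IP, against 591, 654 and 569.5 in input. IP lay below input in each genotype, and KO IP below HET IP. The log2 fold of IP over input was -1.72 in KO (SE 0.221, limma adjusted p = 1.5e-05) and -0.67 in HET (SE 0.221, limma adjusted p = 0.0311). The HET call was lost without any 1 of the 3 HET inputs, without HET IP replicate 1 and without HET IP replicate 3 (adjusted p 0.0603 to 0.103). The difference, KO minus HET, was -1.05 (SE 0.312, 95% interval -1.71 to -0.39, limma adjusted p = 0.0435).

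That difference of Tdrd6 was also close to the threshold, with values from -1.36 to -0.77 over 20 alternatives and adjusted p from 0.00369 to 0.101. The call was lost in 13 of the 20: with no filter (adjusted p = 0.0673), TMM scaling (0.0618) and edgeR (0.0557), and without any 1 of the 6 inputs, HET IP replicate 2, HET IP replicate 3, KO IP replicate 1 or KO IP replicate 2 (0.0590 to 0.101). DESeq2 gave -0.94 (adjusted p = 0.0186), and the authors' deposited table gives -0.95 with an adjusted p of 0.0183. In the IP libraries alone Tdrd6 was lower in KO, at -1.19 on the log2 scale (limma adjusted p = 0.00819), and so was Mael, at -1.82 (limma adjusted p = 0.00497). There the inputs are left out, and 2988 of 11345 genes passed.

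Tdrd5 (ENSMUSG00000060985, chromosome 1) encodes a Tudor protein that binds piRNA precursors. Its signal was 228, 167 and 264 in KO IP, against 346, 358 and 379 in KO input. HET testes gave 201, 240.3 and 188 in IP, against 378, 308 and 319 in input. IP lay below input in both genotypes, and the 2 IP groups overlapped. The log2 folds were -0.74 in KO (SE 0.174, limma adjusted p = 0.00282) and -0.67 in HET (SE 0.174, limma adjusted p = 0.00830), and these calls were kept under all alternatives. The difference between genotypes was -0.06 with a 95% interval of -0.59 to 0.46 (limma adjusted p = 0.900).

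Tdrd7 (ENSMUSG00000035517, chromosome 4) encodes a Tudor protein of the chromatoid body that is also needed in the lens of the eye. Its signal was 222, 161 and 215 in KO IP, against 216, 184 and 207 in KO input. The HET libraries had 148, 129 and 150.1 in IP, against 246, 185 and 206 in input. KO IP and KO input overlapped, whereas HET IP lay below HET input and below KO IP. The log2 fold was -0.03 in KO (SE 0.172, limma adjusted p = 0.889) and -0.57 in HET (SE 0.172, limma adjusted p = 0.0206). The HET call was lost without HET input replicate 1, HET input replicate 3 or HET IP replicate 2 (adjusted p 0.0510 to 0.107). The difference between genotypes was 0.53 (SE 0.244, 95% interval 0.02 to 1.05, limma adjusted p = 0.174) and did not pass.

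Tdrd1 (ENSMUSG00000025081, chromosome 19) encodes a partner of MILI in the intermitochondrial cement, and had only 6 to 31 reads in a library. Its signal was 8.98, 15.4 and 14.4 in KO IP, against 16.8, 12 and 25.4 in KO input. For HET the signal was 11.9, 8.49 and 6.25 in IP, against 18.2, 24.9 and 19.1 in input. IP and input overlapped in KO and not in HET. The log2 fold was -0.43 in KO (SE 0.387, limma adjusted p = 0.392) and -1.16 in HET (SE 0.387, limma adjusted p = 0.0321). The HET call was lost with no filter (adjusted p = 0.0804) and without any 1 of the 3 HET inputs, HET IP replicate 2 or HET IP replicate 3 (0.0587 to 0.119). At this depth the difference between genotypes had a 95% interval from -0.42 to 1.90.

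Of the DEAD-box helicases, Ddx4 passed in no comparison in the main setting, and Ddx25 was under the filter and not tested. Ddx4 (ENSMUSG00000021758, chromosome 13) encodes MVH, the mouse Vasa protein, which marks germ cells and sits in the granules. Its signal was 365, 429 and 519.9 in KO IP, against 282, 349 and 349 in KO input. In HET it was 318, 555 and 385 in IP, against 318, 355 and 343 in input. KO IP lay above KO input, and HET IP overlapped HET input. IP over input gave a log2 fold of 0.41 in KO (SE 0.191, limma adjusted p = 0.0887) and 0.27 in HET (SE 0.191, limma adjusted p = 0.309). The KO fold passed without HET IP replicate 2 (0.41, limma adjusted p = 0.0337) and without KO IP replicate 1 (0.54, limma adjusted p = 0.0493). The difference between genotypes was 0.14, with a 95% interval of -0.43 to 0.72 (limma adjusted p = 0.780).

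Ddx25 (ENSMUSG00000032101, chromosome 9) encodes GRTH, a helicase of the chromatoid body that takes part in mRNA export in spermatids. It was hardly counted in these libraries, with 0, 0 and 4 reads in KO IP, 2, 0 and 3 in HET IP, 4, 3 and 3 in KO input and 3, 2 and 5 in HET input. No test or fold is given for it, and the cause of the low counts was not tested.

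The RNA levels of the 9 genes were compared between genotypes in the 6 input libraries, and none passed. Over all 11278 genes tested 9.33% passed, 3.32% higher in KO and 6.01% lower in KO. An unadjusted p below 0.05 was found for 26.1% of all genes tested (2946 of 11278) and for 4 of the 9 genes: Mov10l1, Piwil1 and Piwil2 at higher and Mael at lower values in KO. In these same 4 genes the KO and HET inputs did not overlap, which held for 29.8% of all genes, 13.3% higher and 16.5% lower. By edgeR no gene of the 9 passed, and by DESeq2 Mov10l1 did. In bulk tissue, fewer cells of a type and less RNA per cell cannot be told apart.

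Mov10l1 averaged 540.6 ± 66.2 in KO input and 432 ± 25.3 in HET input (SD, n = 3 each), a log2 fold of 0.32 (SE 0.102, limma adjusted p = 0.0689). It passed with DESeq2 (0.34, adjusted p = 0.0351), with scaling by library totals (0.38, limma adjusted p = 0.0347) and without KO input replicate 1 (0.40, limma adjusted p = 0.0220). Mael averaged 256 ± 24.1 in KO input and 319 ± 8.55 in HET input (SD, n = 3 each), a log2 fold of -0.32 (SE 0.103, limma adjusted p = 0.0665). It passed without KO input replicate 1 (-0.39, limma adjusted p = 0.0301). These are the 2 largest input folds among the 9 genes, in opposite directions.

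The PIWI genes had smaller input folds. Piwil1 averaged 1266 ± 87.9 in KO and 1119 ± 50.7 in HET, a log2 fold of 0.18 (SE 0.0812, limma adjusted p = 0.184). Piwil2 averaged 367 ± 22.1 in KO and 318 ± 6.52 in HET, a log2 fold of 0.21 (SE 0.0938, limma adjusted p = 0.181). The 5 other genes had log2 folds between -0.24 (Tdrd1) and 0.11 (Tdrd5), with overlapping groups and adjusted p of 0.375 or more.

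In the same inputs, summed marker signals of spermatids and spermatogonia did not overlap between genotypes, and those of spermatocytes did. The summed signal of 8 round spermatid markers was 3391 to 3793 in KO and 4373 to 4787 in HET, and 3 of the 8 passed as lower. That of 9 elongating spermatid markers was 12833 to 13100.4 in KO and 14842 to 16522 in HET, with 1 of 7 tested lower. These sums follow the genes with the highest signal. Over the inputs, Oaz3 (7874 to 10457) and Gapdhs (4585 to 6093) held most of the elongating spermatid sum. Acr (1636 to 1947) and Crem (1069 to 1627) held most of the round spermatid sum. The 10 spermatocyte markers summed to 1621 to 1782 in KO and 1490.2 to 1663 in HET, with 2 higher, and Ccna1 (634 to 767) held the largest part. The 8 spermatogonia markers summed to 279 to 299.5 in KO and 228 to 232 in HET, with none of 6 tested called. Sertoli markers summed to 606 to 677 in KO and 526 to 613 in HET, with 1 of 4 tested higher. Of all genes tested in the inputs, 3.32% passed as higher and 6.01% as lower in KO. Leydig (22.2 to 49.1 in KO, 29.5 to 44.3 in HET) and macrophage markers (9.82 to 16.0 in KO, 11.2 to 13.9 in HET) overlapped between genotypes, as did peritubular and vascular markers (3.54 to 6.55 in KO, 1.85 to 3.95 in HET). The part of these shifts in the values of the piRNA genes was not tested.

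**Figure D3:**
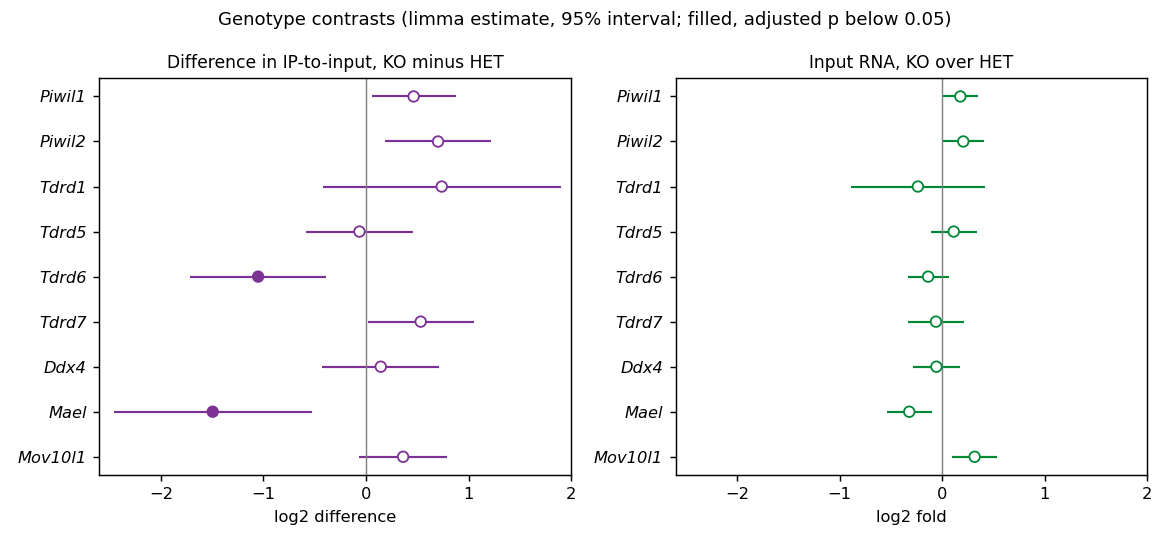
Limma estimates with 95% intervals for the 9 genes tested, with filled points for an adjusted p below 0.05. On the left is the difference in the log2 fold of IP over input, KO minus HET, in which Tdrd6 (-1.05) and Mael (-1.49) passed, and on the right the log2 fold of input RNA, KO over HET, in which none passed and all lay between -0.32 and 0.32.

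In the genotype difference in IP over input, 2 of the 9 genes passed, Tdrd6 and Mael, both lower in KO, against 9.97% of all genes, 3.72% higher and 6.25% lower. The median difference of the 9 was 0.36, beside -0.01 over all genes, and 6 of the 9 were above 0. KO and HET IP libraries did not overlap for 4 genes higher in KO (Piwil1, Piwil2, Tdrd7 and Mov10l1) and 2 lower in KO (Tdrd6 and Mael), and such non-overlap was seen for 43.0% of all genes, 20.9% higher and 22.1% lower. Without HET IP replicate 2, Mael passed as lower (-1.73, limma adjusted p = 0.0276) and Piwil2 as higher (0.83, limma adjusted p = 0.0364), and without KO input replicate 1 none of the 9 passed. The enrichments, the input comparison and this difference share libraries. In the authors' deposited table, Piwil2, Tdrd6 and Mael have an adjusted p below 0.05 among the 10 genes.

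Some stage markers also passed as lower in this difference, as 6.25% of all genes did. Of 8 round spermatid markers 4 passed as lower in KO, with a median difference of -1.13, and their summed signal in IP was 3620.2 to 3960.4 in KO and 6374 to 7646.5 in HET. Of 10 spermatocyte markers 2 passed as lower (median -0.81), and their sum in IP was 1309.7 to 1409.4 in KO and 1350.0 to 1641 in HET. Of 7 elongating spermatid markers tested 1 passed as lower (median -0.45), and the sum of the list of 9 in IP was 14114 to 14417 in KO and 22488 to 44735 in HET, the highest being HET IP replicate 2. As in the inputs, such sums follow the genes with the highest signal. Of 7 spermatogonia markers tested 1 passed as lower (median -0.06), and of 4 Sertoli markers 1 passed as higher (median 0.31). The part of these markers' shifts in the differences of Tdrd6 and Mael was not tested.

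Across the 12 libraries, the signals of some genes varied together, given here as a description since the points share genotype and library type. Pearson's r of log2(signal + 1) was 0.91 between Tdrd6 and Mael and 0.86 between Piwil1 and Piwil2. It was -0.91 between Piwil1 and Tdrd6 and -0.91 between Mael and Mov10l1. Among all 12387 genes tested, the gene most like Piwil1 was Spats2 (r = 0.991), that most like Piwil2 was Ywhaq (0.985), that most like Tdrd6 was Aurka (0.992) and that most like Mael was Rab3d (0.985). For the other genes they were Cbx8 for Mov10l1 (0.961), Gm4294 for Tdrd5 (0.981), Mtx1 for Tdrd7 (0.937), Ssr1 for Ddx4 (0.949) and Cdc25a for Tdrd1 (0.916).

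A wider list of 38 pathway genes was read in the same fits, of which 37 were in the table and 31 were tested (29 in the input comparison). Piwil4 was not analysed here, and Pld6 and all 5 genes of transposon silencing in the embryonic germ line (Dnmt3l, Dnmt3c, Spocd1, Tex15 and Morc1) were under the filter. In KO IP over input, 8 of the 31 were higher and 6 lower (median log2 fold 0.17), against 45.5% of all genes, 21.2% higher and 24.3% lower. The 6 lower include Gpat2, which met the filter through input libraries alone, so its call carries no weight. In HET IP over input, 3 of the 31 were higher and 3 lower (median 0.11), against 30.1% of all genes, 14.7% higher and 15.4% lower. In the difference between genotypes 1 of the 31 was higher and 1 lower (median 0.14), against 9.97% of all genes. In the input comparison 2 of 29 were higher and 2 lower (median -0.09), against 9.33% of all genes.

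Among 10 piRNA biogenesis genes tested for IP, KO IP over input was higher in 1 and lower in 3, against the 21.2% higher and 24.3% lower of all genes. Tdrkh, a mitochondrial Tudor protein that recruits PIWI proteins for trimming, was higher by 0.69 (SE 0.222, limma adjusted p = 0.0200), a call lost without KO input replicate 2 or 3 or KO IP replicate 2 or 3 (adjusted p up to 0.0849). Fkbp6, a co-chaperone that acts with the heat shock protein HSP90 in PIWI loading, was lower in IP in KO (-1.246, limma adjusted p = 2.8e-05) and in HET (-0.59, limma adjusted p = 0.0156, lost without HET input replicate 1 or HET IP replicate 3, at up to 0.0824). Its input averaged 221 ± 6.90 in KO and 154 ± 19.8 in HET (SD, n = 3 each), a log2 fold of 0.53 (limma adjusted p = 0.0167). That input call was lost without HET input replicate 2 or 3 or KO input replicate 2 or 3 (adjusted p 0.0509 to 0.0847). Gtsf1, a zinc finger cofactor of PIWI proteins, was lower in KO IP, at -0.55 (limma adjusted p = 0.00504). Gpat2, a mitochondrial outer membrane protein that binds MILI, had 0 to 2 reads in KO IP libraries and 7 to 18 in KO inputs. It met the filter through input libraries alone, so its place among the 3 lower genes carries no weight, and no fold or p is given for it.

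Of the 5 other Tudor genes, 1 was higher and 2 lower in KO IP over input, and none passed in HET, where 45.5% of all genes passed in KO and 30.1% in HET. Akap1, an anchor protein of the mitochondrial surface, had a signal of 605, 350.2 and 365 in KO IP, against 303, 223 and 222 in KO input. HET testes gave 273, 150.2 and 212 in IP, against 311, 301 and 318 in input. KO IP lay above KO input, and HET IP below HET input. The log2 fold was 0.79 in KO (limma adjusted p = 0.0112, and 0.0645 without KO IP replicate 1). In HET it was -0.59 (SE 0.229, limma adjusted p = 0.0625) and did not pass. The difference between genotypes was 1.37 (SE 0.324, limma adjusted p = 0.0160), a call lost only without KO input replicate 2 (adjusted p = 0.0507) among 20 alternatives. Rnf17, a Tudor protein of its own germ granule, was lower in KO IP, at -1.09 (limma adjusted p = 0.00258). Snd1, a Tudor nuclease, was lower, at -1.18 (limma adjusted p = 0.0482), but 14 of 20 alternatives ended that call, among them edgeR, DESeq2 and the removal of any 1 input, HET IP replicate 3, KO IP replicate 1 or KO IP replicate 2 (adjusted p up to 0.255).

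Of 3 transcription factors of piRNA loci tested for IP, 1 was higher in KO, and 1 was higher and 1 lower in HET, beside the same 45.5% and 30.1% of all genes. Mybl1, which encodes A-MYB, was higher in IP than in input in KO (0.75, limma adjusted p = 0.00152) and in HET (0.45, limma adjusted p = 0.0468). The HET call was lost in 12 of 20 alternatives, which included leaving out any 1 input, HET IP replicate 1 or HET IP replicate 3 (adjusted p up to 0.176). Tcfl5, which acts with A-MYB in spermatocytes, was lower in HET IP, at 373, 384 and 746, against 1233, 1509 and 1142 in HET input (-1.44, limma adjusted p = 0.000171). In KO its IP also lay below input, at 665, 718 and 928 against 1224, 1012 and 1020 (-0.50, limma adjusted p = 0.0735). None of the 3 genes passed in the difference between genotypes.

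Among 13 genes of the chromatoid body and of PIWI partners, 5 were higher and 1 lower in KO IP over input. Of all genes 45.5% passed, 21.2% higher and 24.3% lower. The 5 were Prmt5, which methylates PIWI arginines (1.255, limma adjusted p = 0.00625, on 10 to 20 reads in KO inputs), Ybx2, an mRNA-storing protein of germ cells (0.87, limma adjusted p = 0.000990), the decay factors Upf2 (0.82, limma adjusted p = 0.00396) and Upf1 (0.44, limma adjusted p = 0.0341), and Tsks, a kinase substrate of the spermatid (0.64, limma adjusted p = 0.000311). The call of Upf1 was lost in 8 of 20 alternatives, among them leaving out any 1 KO input, KO IP replicate 2 or KO IP replicate 3 (adjusted p up to 0.118). In HET, Tsks was also higher in IP (0.41, limma adjusted p = 0.0139, and 0.0648 without HET input replicate 1), and Kif17, a kinesin found in spermatids, was lower (-0.47, limma adjusted p = 0.0479). That call of Kif17 was lost in 12 of 20 alternatives, with 9 of the 12 libraries left out in turn among them (adjusted p up to 0.181): all 6 inputs, HET IP replicates 2 and 3 and KO IP replicate 3.

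Hsp90aa1, an inducible HSP90 chaperone that acts in PIWI loading, moved in opposite directions. Its signal was 5509.6, 6547 and 6101 in KO IP, against 8425, 10730.0 and 10954 in KO input. The HET libraries had 11537, 12674 and 10401 in IP, against 8590.4, 9242 and 8926 in input. KO IP lay below every other library, and HET IP above HET input. The log2 fold of IP over input was -0.72 in KO (SE 0.126, limma adjusted p = 0.000252) and 0.37 in HET (SE 0.126, limma adjusted p = 0.0376). The HET call was lost in 9 of 20 alternatives, which included leaving out any 1 HET input, HET IP replicate 1 or HET IP replicate 2 (adjusted p up to 0.117). The difference between genotypes was -1.09 (SE 0.178, limma adjusted p = 0.00215) and was kept under all 20 alternatives. Since near-identical pseudogenes of HSP90 genes exist, its counts may hold reads of more than 1 gene.

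In the inputs, 3 of the 13 genes of this group passed, 1 higher and 2 lower, against 9.33% of all genes, 3.32% higher and 6.01% lower. Upf1 averaged 489 ± 27.7 in KO and 381 ± 41.7 in HET (0.37, limma adjusted p = 0.0389), a call lost without HET input replicate 2 or 3 or KO input replicate 2 or 3 (adjusted p up to 0.175). Kif17 averaged 798 ± 99.1 in KO and 1009 ± 62.3 in HET (-0.34, limma adjusted p = 0.0400). Tssk2, a testis serine kinase with a close paralog (Tssk1), averaged 51.4 ± 7.78 in KO and 77.8 ± 7.31 in HET (-0.60, limma adjusted p = 0.0432). The calls of Kif17 and Tssk2 were lost with scaling by library totals, that of Tssk2 also with DESeq2, and both when any 1 of the 3 HET inputs, KO input replicate 2 or KO input replicate 3 was left out (adjusted p up to 0.158). Each of these 3 calls and that of Fkbp6 was also lost in a fit of all 12 libraries (adjusted p 0.289 to 0.499).

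**Figure D4:**
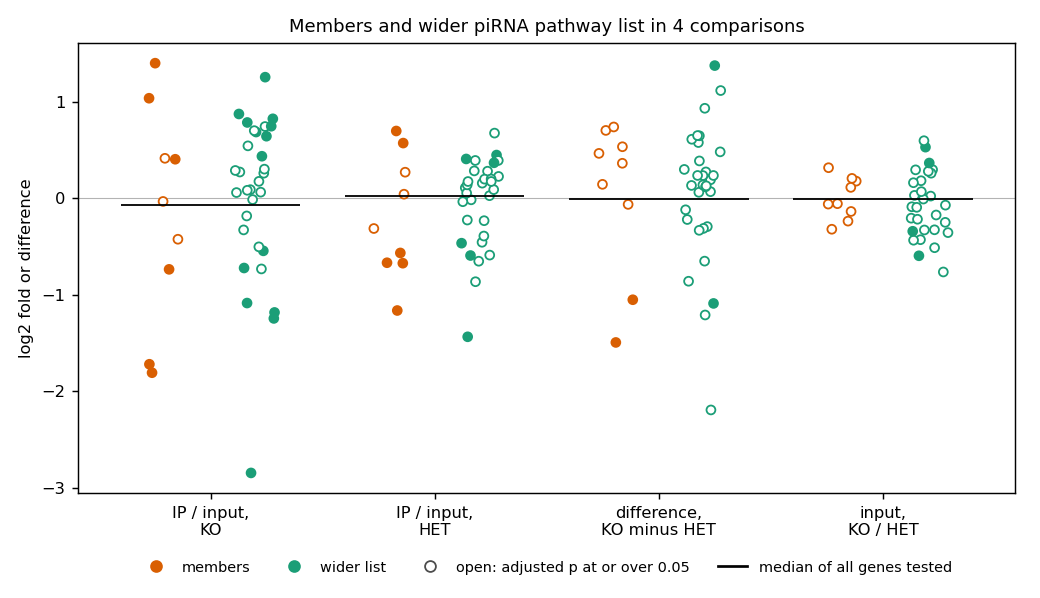
Log2 folds or differences (y axis) of the 9 genes tested (orange) and of the wider pathway list (green) in 4 comparisons: IP over input in KO, IP over input in HET, their difference (KO minus HET) and input RNA of KO over HET. Filled points passed at an adjusted p below 0.05, and black lines are medians over all genes tested, which run from -0.07 in KO to 0.02 in HET. The lowest green point of IP over input in KO is Gpat2, which met the filter through input libraries alone and carries no weight.

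Brain served as a tissue without germ cells. Its table holds signals of ribosome footprints and of input RNA from KO and wild-type (WT) brains, 3 libraries in each of 4 groups, and was scaled apart from the testes table, so levels are not compared between them. Mov10l1 was listed at 0 in 11 of the 12 brain libraries and at 2.63 in the other. Piwil1 reached at most 3.31, Mael 4.11, Tdrd1 7.39 and Piwil2 9.56. Tdrd5 ranged over 0.879 to 62.8, Tdrd6 over 0.747 to 27.7 and Ddx4 over 1.99 to 26.04, with 6, 3 and 8 libraries at or above 10. For Tdrd5 these 6 were the inputs, at 21.4 to 62.8 in KO and 17.8 to 50.45 in WT. Its footprint signal was 0.879 to 2.08 in KO and 1.06 to 1.61 in WT. Tdrd7 and Ddx25 were measured in every brain library.

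Tdrd7 had a footprint signal of 252, 126.5 and 253 in KO brain and 196, 359 and 265 in WT brain. Its input signal was 223, 148 and 156 in KO and 342, 303 and 159 in WT, and the genotypes overlapped in both. Ddx25, hardly counted in the testes libraries, had a footprint signal of 222, 254 and 242 in KO brain and 138, 252 and 144 in WT brain. Its input signal was 308, 375 and 287 in KO and 389, 368 and 368 in WT. These values too overlapped between genotypes, and no test was made of them.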

How the data were processed

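Libraries of m6Am-Exo-Seq from mouse testes (12) and of brain footprinting (12) were used, and 18 tissue RNA-seq libraries were not analysed here. The authors deposited 1 table per assay, in which each library's signal is its reads divided by a factor for that library. For testes, dividing by the smallest step of a library gave whole reads for 100% of values (tolerance 0.01), and these reads were recovered. That table also holds the authors' log2 difference between genotypes in IP over input, and the authors' adjusted p-value. Tools named in the submitters' processing notes, without roles, are STAR, DESeq, DESeq2 1.25.10, Salmon 0.12.0 and R 3.6.2. Not given in the sources used here are the genome build, the annotation and whether strand was used, so reads of overlapping or antisense genes may not be separated.

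Tests used limma 3.58.1 (empirical Bayes with a trend) in R 4.3.3 on log2(signal + 1), which understates the folds of low genes, with Benjamini-Hochberg adjustment over all genes tested at 0.05. Genes needed 3 or more libraries of the fit with a signal of 10 or above. KO against HET input used 6 libraries. IP over input in KO, in HET and their difference came from 1 model over 12 libraries. The plan named limma as the main test, with a count test in its place only for a raw count table, and the files hold scaled values. Alternatives were pseudocounts of 0.5 and 5, no filter, scaling by library totals or by TMM, edgeR 4.0.16 and DESeq2 1.42.0 on recovered reads, other sets of libraries in the fit, and leaving out each library. Genes named outside the 10 are those of the wider list that passed in at least 1 comparison, and the most alike gene is that with the highest Pearson's r. The fits were also run on simulated counts with the same spread setting for every gene and group. The spread of the real libraries differed between groups, so that run does not check the calls made here. Libraries were numbered in the order of the labels, and a number pairs nothing. The chi-square per gene between replicates ran from 2.91 to 27.5, with the highest values for HET IP replicate 2, and no library was a duplicate. The genes, lists and tests were chosen with earlier results of these data known.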

Additional observations from a re-analysis of the deposited data

Results flagged for a closer look

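In 4 genes the effect in KO and the effect in HET differed by a test of the difference itself, the IP-to-input difference, KO minus HET, with limma. It was -1.05 for Tdrd6, where KO IP averaged 176 ± 73.3 and HET IP 382 ± 56.5 (SD, n = 3 each). It was -1.49 for Mael, where KO IP averaged 81.1 ± 42.8 and HET IP 264 ± 75.6. It was 1.37 for Akap1 of the wider list, where KO IP averaged 439.9 ± 142.9 and HET IP 212 ± 61.4. It was -1.09 for Hsp90aa1 of the wider list, where KO IP averaged 6052 ± 520.5 and HET IP 11537 ± 1137. The 4 genes are 2 of the 9 genes, and 1 higher and 1 lower of 31 tested in the wider list, against 9.97% of all genes. Among 20 alternatives the call of Tdrd6 was lost in 13, that of Mael in 12 and that of Akap1 in 1, and that of Hsp90aa1 was kept in all. Each group of 3 libraries is too small for a test of a single library that stands apart.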

How the results depend on the processing

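No paired analysis was possible because the labels carry no replicate numbers. The count of genes called in the inputs was 1052, and 25 with all 12 libraries in the fit, where the IP libraries share in the estimate of the spread. It ran from 281 to 1433 when 1 library was left out. With scaling by library totals, 581 input calls were higher in KO and 463 lower, against 374 and 678 in the main setting. The count for the difference between genotypes was 1235, 793 with no filter, 2988 with the IP libraries compared alone, and 546 to 1729 with 1 library left out. Scaling by library totals moved the median log2 fold of all genes in KO IP over input to -0.17, from -0.07, and each change in that comparison is relative to it. Values that changed sign, none of which passed in any setting, were Tdrd7 in input (0.0024) and Ddx4 in input (0.0068) with library totals, Mov10l1 in HET IP over input (-0.056 with library totals, -0.0096 with TMM), Tdrd7 in KO IP over input (0.012 with edgeR and 0.012 with DESeq2) and the difference of Tdrd5 (0.024 with edgeR, 0.049 in IP alone). With 1 library left out, Tdrd1 in input ran from -0.50 to 0.0088, Tdrd7 from -0.15 to 0.051 and Ddx4 from -0.11 to 0.047. Mov10l1 in HET IP over input ran from -0.0078 to 0.084, Tdrd7 in KO IP over input from -0.12 to 0.11, the difference of Tdrd5 from -0.21 to 0.12 and that of Ddx4 from -0.036 to 0.37. Of all 666 alternative values of the 9 genes, 590 kept direction and side of the threshold, 44 lost a call, 14 gained one and 18 changed sign. Depth limits Tdrd1 and Ddx25 most, and Mael in KO IP.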
